A study of Homo sapiens with 26 samples.

Results

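The genes that write and erase methyl marks on histone lysines were examined in 26 arrays of 786-O cells, a human clear cell renal carcinoma line. Members were the genes whose symbol starts with KDM, KMT or SETD followed by a digit, together with EZH1, EZH2, EHMT1, EHMT2, SUV39H1, SUV39H2, NSD1, NSD2, NSD3 and PBRM1. A gene was represented by its probe set with the highest mean signal among the probe sets annotated to that gene alone. This gave 46 genes of the 19775 with such a probe set. Of these, 44 are coding and 2, KDM7A-DT and KMT2E-AS1, are non-coding transcripts that match by spelling. BAP1, a nuclear deubiquitinase that the rule also names, had no single-gene probe set in the annotation used and is not analysed here. PBRM1, the polybromo subunit of the PBAF remodelling complex, is neither a writer nor an eraser and was included with them. The rule goes by symbol, so membership does not show that a protein acts on histone lysines. UTY and KDM5D were left out.

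The study asked what compounds found in a chemical screen for lower HIF-2a do to the transcriptome. Cells treated with a compound, known only by the number 40, 41, 76 or 77, were set against cells given DMSO, and the DMSO cells against untreated cells (titled Blk). WT8 was set against PRC3. These 8 groups had 3 arrays each, and pTR and pTV had 1 array each. The series text names treatments but does not tie them to titles, so Blk was read as untreated and the numbers as compounds by elimination. WT8 and PRC3 are names in wide use for 786-O sublines carrying wild-type VHL and an empty vector. The labels do not say so, and they give no dose, time, clone number or meaning for pTR and pTV. All groups share the 786-O background, which lacks functional VHL and therefore accumulates HIF-2a. The labels do not say whether replicate arrays stand for separate cultures. The p-values therefore measure the spread between arrays, and that spread may be technical.

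Histone lysine methylation is set by methyltransferases, most of which carry a SET domain, and removed by demethylases. The KDM1 enzymes use flavin, while the other KDM families carry a Jumonji C domain and need oxygen, iron and 2-oxoglutarate, the same substrates as the prolyl hydroxylases that mark HIF for VHL. KDM3A, KDM4B and KDM4C are known as hypoxia-induced HIF targets in other cells. In clear cell renal carcinoma, PBRM1, SETD2, BAP1 and KDM5C are among the genes most often mutated after VHL.

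HIF binds a short core, ACGTG or GCGTG. Windows of 30 bases around this core are shown for the members on which the results turn or that are known HIF targets. They come from RefSeq promoters of GRCh38.p14, in gene orientation. The match a window was taken around is in capitals: ACGTG where the promoter holds it, otherwise GCGTG. Any further GCGTG, on either strand, is left in lower case. CACGTG, the E-box, holds ACGTG on both strands and is capitalised whole. A second CACGTG window of KDM4C is not shown.
NSD2 (chr4:1871205-1871234, plus strand): cccccacccgccGCGTGcctgcccgccccg
PBRM1 (chr3:52686127-52686156, minus strand): agcaacttccagACGTGggtccctccacgc
PBRM1 (chr3:52686026-52686055, minus strand): ctccgctggcgcCACGTGtgaactgaagcc
KDM3A (chr2:86441333-86441362, plus strand): ccgggaggctgtGCGTGtcttgtgagagct
KDM4B (chr19:4968863-4968892, plus strand): gtcagcgggCACGTGggtgggcgccggcgt
KDM4C (chr9:6757898-6757927, plus strand): tgtttgtaagccCACGTGactcaccaagtg

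Promoters, taken as 250 bases before to 50 after a start, were found for 44 of the 46 members, 63 promoters in all. ACGTG on either strand stood in 20.6% of them and in 21.4% of the 35116 promoters of the table. GCGTG stood in 65.1% of the members' promoters and in 36.5% of all, and CACGTG in 12.7% and 7.26%. Some genes have several promoters. Counted per gene, ACGTG stood in a promoter of 29.5% of the member genes and 24.9% of all genes, GCGTG of 79.5% and 40.6%, and CACGTG of 18.2% and 8.77%. These counts describe letters and say nothing of binding, and base composition was not compared. SETD1A, KDM5C, KDM3B, KDM4D, KMT2A, KMT2E, KMT2E-AS1, SETD4 and SETD7 held neither core in this window.

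Signals below are normalised probe set signals on a linear scale, floored at 20, and changes are differences of mean log2 signals. Signals of different probe sets were not set against each other. Of the 46 members, 45 passed the filter on dim probe sets. KDM4D, a demethylase of H3K9, was the exception: it stood at the floor on 22 of 26 arrays and reached 28.2 at most. The median signal over the 26 arrays was above 100 for 26 members and below 50 for 5, and 7 members had at least 1 array at the floor. KDM3B, an H3K9 demethylase, held 274 to 442 over all arrays, and SETD7, an H3K4 monomethylase, held 628 to 993. EZH2, the H3K27 methyltransferase of PRC2, ran 246 to 451 and KDM1A, which removes methyl groups from H3K4, ran 292 to 675. KMT5A, the H4K20 monomethylase, had the widest span of the members with no array at the floor, 132 to 778. Its highest value was on WT8 replicate 3, whose other WT8 arrays read 180.1 and 338. SETD1A, an H3K4 methyltransferase of the COMPASS family, ran 20 to 53.2 with 9 arrays at the floor.

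**Figure D1:**
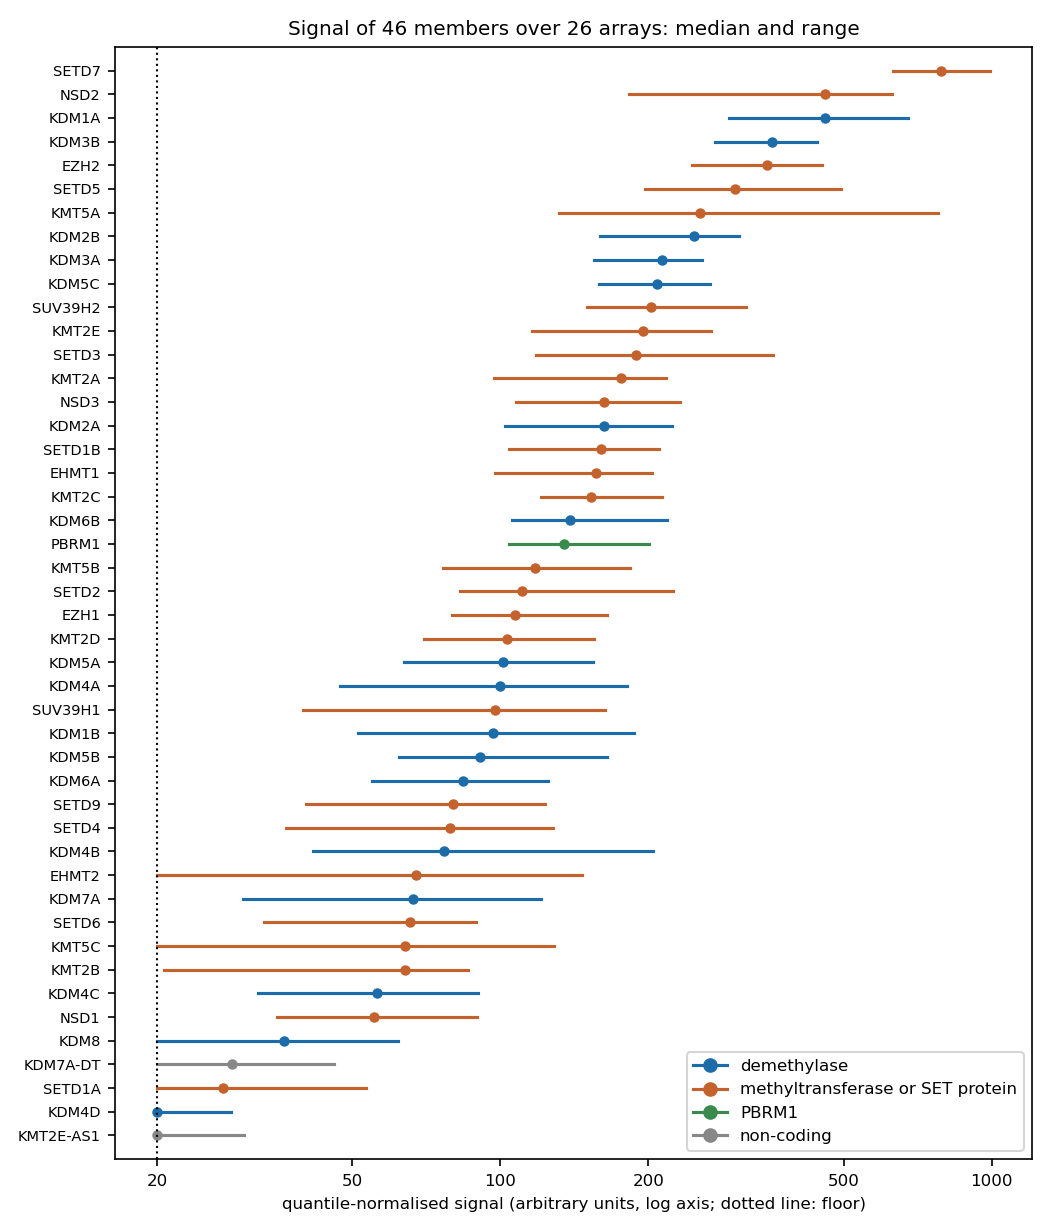
Normalised signal of each of the 46 members on a log axis, with a point at the median and a line over the range of the 26 arrays, coloured by kind of gene. The dotted line is the floor of 20, which 7 members reach on at least 1 array, and 11 members have a median above 200.

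The arrays had 2% trimmed mean signals of 80.1 to 95.5. Replicates 2 and 3 of compound 40 had mean deposited signals of 164 and 171, against about 141 on the other arrays, and were normalised with the rest. The ratio of 3 prime to 5 prime control probes, a sign of RNA quality, was 2.37 for ACTB on WT8 replicate 3 and at most 1.39 on any other array. For GAPDH these values were 1.32 and 1.06. The HIF-2a check genes CCND1, SLC2A1, VEGFA and EGLN3 fell in WT8 against PRC3 (4 of 5 genes, limma at an adjusted p of 0.05), 2 of 5 fell with each of 40, 41 and 76, and 0 with 77. The oxidative stress genes HMOX1, AKR1B10 and SLC7A11 rose with 40, 41 and 76 and did not pass the test with 77. Of the renal epithelial markers, PAX8 averaged 937 ± 141 in WT8, 966 ± 117 in PRC3, 921 ± 148 with compound 41 and 893 ± 148 with DMSO (SD, n = 3). The summed signal of the 7 renal markers measured was 10610.5 to 11045.5 with 76, below 11263.3 to 11725.6 with DMSO. The sums overlapped DMSO with 40, 41 and 77, and 0 of the 7 were called with any compound. Of the 4 leukocyte markers measured, PTPRC and the monocyte gene CD14 were at the floor on all 26 arrays. The same held for VWF alone of the 4 endothelial markers. Summed signals ran 80 to 91.1 for the leukocyte markers and 107 to 177 for the endothelial ones. Of the 4 fibroblast markers tested, 1, LUM, was called between WT8 and PRC3, at 1.54 (SE 0.26, adjusted p = 0.000657) by limma. The summed signal of the 5 fibroblast markers measured was 270.1 to 312 in WT8, against 206 to 226 in PRC3, and none of the 5 was at the floor on every array. With DMSO the sum was 232.9 to 286.2. It was lower with 40 (117.9 to 204.8), 41 (215.7 to 222.1) and 77 (197.5 to 226.0), and overlapped DMSO with 76 (200.1 to 242.0). No fibroblast marker was called with a compound. The part of this signal in the results was not tested.

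NSD2, the H3K36 dimethyltransferase, was the 1 member of 45 that passed the test in WT8 against PRC3, and it fell. In this comparison 4.56% of all 35013 tested probe sets were called, against 2.22% of the members. NSD2 read 366, 254 and 182 in WT8 replicates 1 to 3, against 474, 381 and 368 in PRC3. All WT8 arrays lay below all PRC3 arrays, though WT8 replicate 1 and PRC3 replicate 3 were only just apart. The means were 268 ± 92.4 in WT8 and 408 ± 57.7 in PRC3 (SD, n = 3 each), a log2 change of -0.66 (SE 0.18, adjusted p = 0.0316) in limma. All 6 tested NSD2 probe sets were lower, by log2 changes of -0.33 to -0.73, and 2 of them were called. The call rests on several arrays: without WT8 replicate 3 the change was -0.41 (limma adjusted p = 0.206), and without PRC3 replicate 1 it was -0.54 (adjusted p = 0.143). It was also lost without PRC3 replicate 2 (adjusted p = 0.0596), without WT8 replicate 2 (0.098), in a fit of both groups alone (0.454) and with the NSD2 probe set of second highest signal (0.141). Without WT8 replicate 1 it stood at -0.91 (limma adjusted p = 0.00116). With no filter, a floor of 50 or no eBayes trend the limma adjusted p was 0.0726, 0.052 and 0.0621. WT8 replicate 3, which has the lowest NSD2 signal of the 6 arrays, is also the array with the highest ACTB ratio, and the part of RNA quality was not tested beyond leaving it out.

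PBRM1 read 104, 109 and 116 in WT8, against 139, 159.6 and 163 in PRC3, with no overlap. Its change of -0.49 (SE 0.16, adjusted p = 0.0976) did not pass limma's threshold, and the 95% interval ran -0.82 to -0.15. All 5 tested PBRM1 probe sets were lower in WT8, by -0.26 to -0.97. With a floor of 50 PBRM1 was called (limma adjusted p = 0.0321), as it was with no filter on dim probe sets (0.0426). Over all alternative settings its limma adjusted p reached 0.598. Leaving out 1 of the 6 arrays gave 0 calls, with limma adjusted p-values of 0.096 to 0.234. Against Blk, PRC3 had all 5 PBRM1 probe sets higher, by 0.24 to 0.43, and 0 of them called. The PRC3 arrays enter both comparisons.

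**Figure D2:**
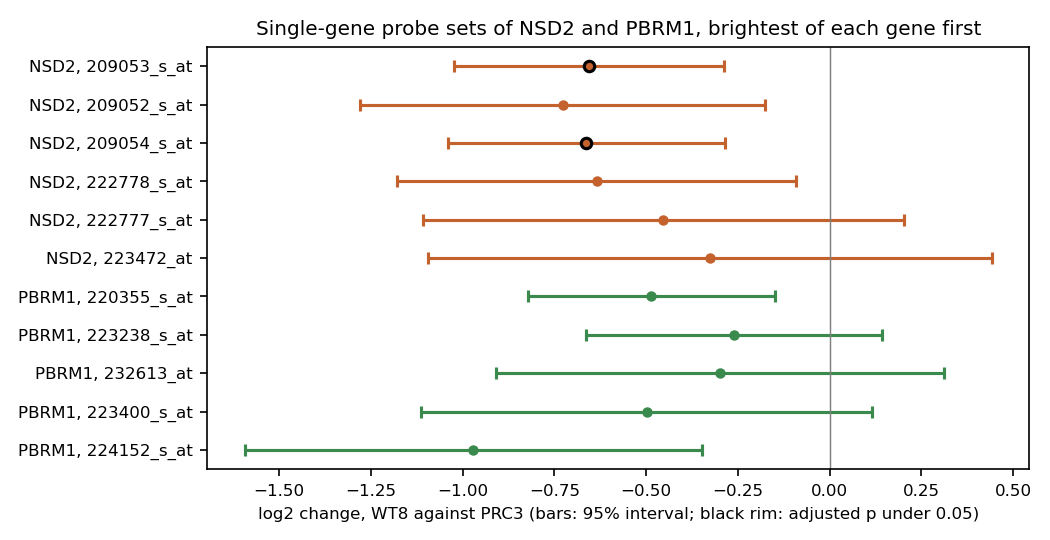
Log2 change in WT8 against PRC3 of each tested single-gene probe set of NSD2 (6) and PBRM1 (5), with 95% intervals and the probe set used for the gene at the top of each set. All 11 points lie below 0, and a black rim marks the 2 NSD2 probe sets with a limma adjusted p under 0.05.

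Of the known HIF targets, KDM3A, an H3K9 demethylase, read 234, 242 and 253 in WT8, against 184, 209.9 and 180.3 in PRC3. WT8 was higher on every array, with a change of 0.35 (SE 0.14, adjusted p = 0.215) in limma. KDM4B, which demethylates H3K9, read 74.5, 69.5 and 63.3 in WT8 and 67.2, 106 and 69.2 in PRC3, a change of -0.20 with overlapping arrays. KDM4C, of the same family, read 81.9, 54.5 and 51.8 in WT8, against 32.2, 54.3 and 52.1 in PRC3, a change of 0.45 (SE 0.29, adjusted p = 0.516) in limma. In this comparison none of these 3 targets passed the test and their estimates did not share a direction. The remaining KDM4 member with a named value, KDM4A, was at 0.66 (SE 0.31, adjusted p = 0.296). It was called once PRC3 replicate 1 was left out, when NSD2 was not.

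SETD2, KDM5C and the H3K27 enzymes KDM6A and EZH2 did not pass the test in WT8 against PRC3. SETD2, which trimethylates H3K36, read 179, 119 and 165 in WT8, against 174, 154 and 118 in PRC3, a log2 change of 0.05. KDM5C, an H3K4 demethylase encoded on the X chromosome, read 232, 186 and 176 in WT8, against 258, 179 and 159 in PRC3, a change of 0.02 with an interval of -0.39 to 0.42. KDM6A, the X-linked H3K27 demethylase, read 95.9, 75.2 and 69.6 in WT8, against 96.2, 76.4 and 64.0 in PRC3, a change of 0.03. EZH2, which acts on the same residue in the other direction, read 266, 415 and 357 in WT8, against 393, 428 and 451 in PRC3, a change of -0.32 (SE 0.15, adjusted p = 0.296). For all 4 genes the arrays of both groups overlapped.

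Over the 45 members, 27 estimates were above 0 and 18 below in WT8 against PRC3, between -0.66 and 0.66, with a median of 0.04 against 0 over all tested probe sets. The arrays did not overlap for 8 members, 4 higher and 4 lower, against 15.8% of all tested probe sets. The 95% interval lay within 1 log2 unit either way for 36 of the 45, so for those members a change of 2-fold lies outside the interval. Standard errors ran from 0.12 for KDM3B to 0.46 for KMT5C, an H4K20 methyltransferase, with a median of 0.23.

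By family, these medians lay between -0.20 and 0.45 for the enzymes named here. In WT8 against PRC3 the medians of the demethylase families were -0.03 for KDM2 (2 genes), 0.13 for KDM5 (3 genes), 0.14 for KDM1 (2 genes), 0.18 for KDM6 (2 genes), 0.24 for KDM3 (2 genes) and 0.45 for KDM4 (3 tested), and 0 of these genes were called. Among the methyltransferases the medians were -0.20 for the 5 KMT2 genes, most of which methylate H3K4, -0.09 for the 4 H3K9 enzymes EHMT1, EHMT2, SUV39H1 and SUV39H2, 0.03 for EZH1 and EZH2, and 0.04 for the 3 KMT5 genes, which methylate H4K20. SETD2 and the NSD genes, which methylate H3K36, had a median of 0.00 over 4 genes with NSD2 called. With 41 against DMSO the same families lay between -0.37 (KDM1) and 0.22 (KDM6). None of these family medians was tested.

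**Figure D3:**
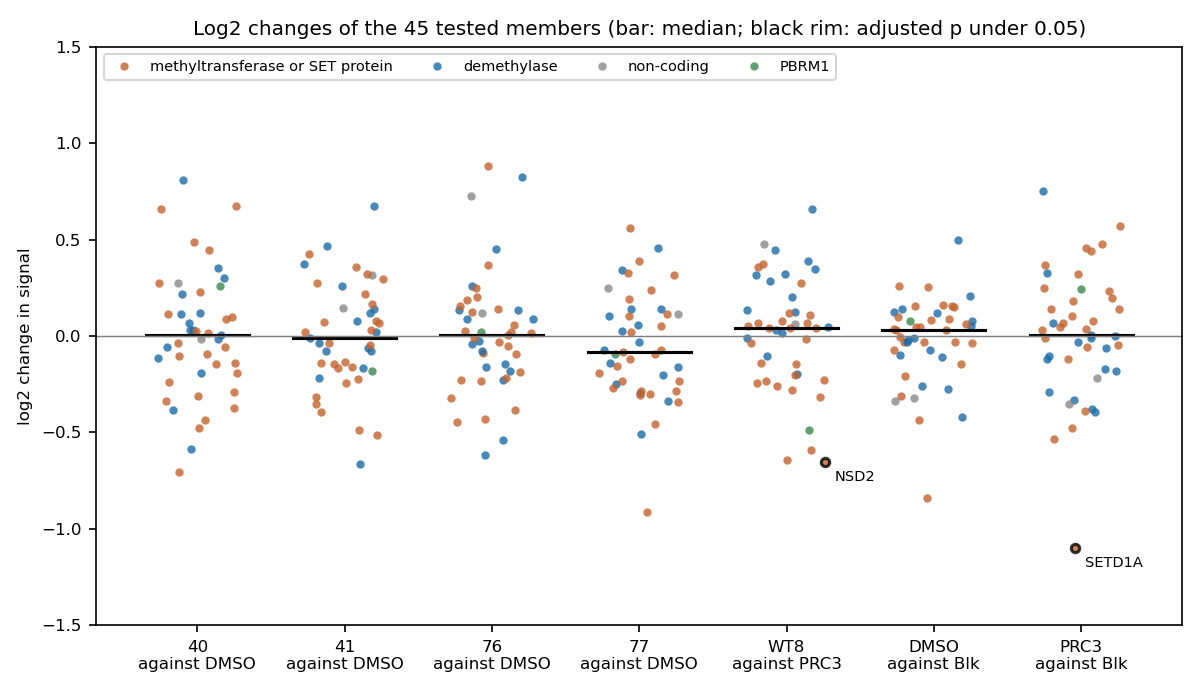
Log2 change of the 45 tested members in 7 comparisons, 1 point a member coloured by kind of gene, with a bar at the median of the members. The medians lie close to 0 in every column, and the 2 points with a black rim, NSD2 in WT8 against PRC3 and SETD1A in PRC3 against Blk, are those with a limma adjusted p under 0.05.

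With each compound, 0 of the 45 members passed the test against DMSO. The background was 0.685% of tested probe sets with 40, 2.54% with 41, 1.35% with 76 and 0.171% with 77. At an unadjusted p under 0.05 in limma there were 4 members with 40, 4 with 41, 7 with 76 and 2 with 77, of 45, against 11.7%, 13.2%, 10.4% and 7.63% of all tested probe sets. The median change over the members was 0.01 with 40, -0.01 with 41, 0.01 with 76 and -0.08 with 77, against 0 over all tested probe sets. The arrays did not overlap for 5, 11, 6 and 9 members, against a background of 14.0%, 20.2%, 17.2% and 13.1%. Of these members 2, 1, 3 and 1 were higher than DMSO and 3, 10, 3 and 8 lower. The background holds both directions together. The 4 comparisons share the DMSO arrays, so a low or high DMSO value appears in all of them.

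KDM1B, the flavin-dependent H3K4 demethylase related to KDM1A, had the smallest p among the lower estimates with 40, with 41 and with 76. It read 85.6, 63.1 and 64.2 with 40, 81.4, 51.4 and 69.9 with 41, 74.5, 58.3 and 74.9 with 76 and 106, 96.6 and 97.6 with 77, against 92.5, 124 and 102 with DMSO. Every array of 40, 41 and 76 was below every DMSO array. The log2 changes were -0.58 (SE 0.22, adjusted p = 0.267) with 40, -0.67 (SE 0.22, adjusted p = 0.123) with 41, -0.62 (SE 0.22, adjusted p = 0.235) with 76 and -0.07 (SE 0.22, adjusted p = 0.992) with 77 in limma. Blk read 97.0, 121 and 104, and the arrays of 40, 41 and 76 lay below these as well. When the DMSO and Blk arrays were pooled as 6 controls, a choice made after seeing the data, KDM1B was called with 41 at -0.68 (limma adjusted p = 0.0382). That setting called 5.05% of all tested probe sets with 41, and it did not call KDM1B with 40, 76 or 77. The other KDM1B probe set was called with 41 against DMSO at -1.25 (SE 0.33, adjusted p = 0.0449), with 32.7, 20.1 and 32.8 with 41 against 64.8, 86.2 and 51.5 with DMSO. With 40 and 76 no alternative setting called KDM1B, the other probe set included. The lowest limma adjusted p there was 0.108 with 40 and 0.0817 with 76. For KDM1A, its relative, the estimates with 40, 41, 76 and 77 were 0.22, -0.08, -0.04 and -0.03.

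NSD2, the member called in WT8, read 429, 438 and 426 with 40, 430.1, 442 and 308 with 41, 482, 523 and 436 with 76 and 590.0, 518 and 551 with 77, against 520.3, 564 and 552 with DMSO. The change with 41 was -0.49 (SE 0.18, adjusted p = 0.176) in limma, and the arrays did not overlap. The changes with 40, 76 and 77 were -0.34, -0.19 and 0.02. The arrays of 40 did not overlap DMSO either, and those of 40 and 41 lay below all Blk arrays as well. All 6 tested NSD2 probe sets had estimates below 0 with 40, with 41 and with 76, and 3 of 6 with 77. Of these, 1 was called, with 41, at -0.89 (SE 0.18, adjusted p = 0.00669), where it read 157, 189 and 118 with 41 against 303, 251 and 297 with DMSO. Probe sets of a gene share their RNA and are not replicates.

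EZH2 read 294, 246 and 341 with 40, 282, 328 and 300.4 with 41, 329, 295 and 283 with 76 and 382, 318 and 363 with 77, against 375, 366 and 392 with DMSO. All arrays of 40, 41 and 76 were below the DMSO arrays, and compound 77 overlapped them. The changes were -0.38 (SE 0.15, adjusted p = 0.291), -0.32 (SE 0.15, adjusted p = 0.35) and -0.32 (SE 0.15, adjusted p = 0.43) in limma, and -0.09 with 77. Its paralogue EZH1 had 0.11, 0.22, -0.09 and 0.32 with 40, 41, 76 and 77.

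**Figure D4:**
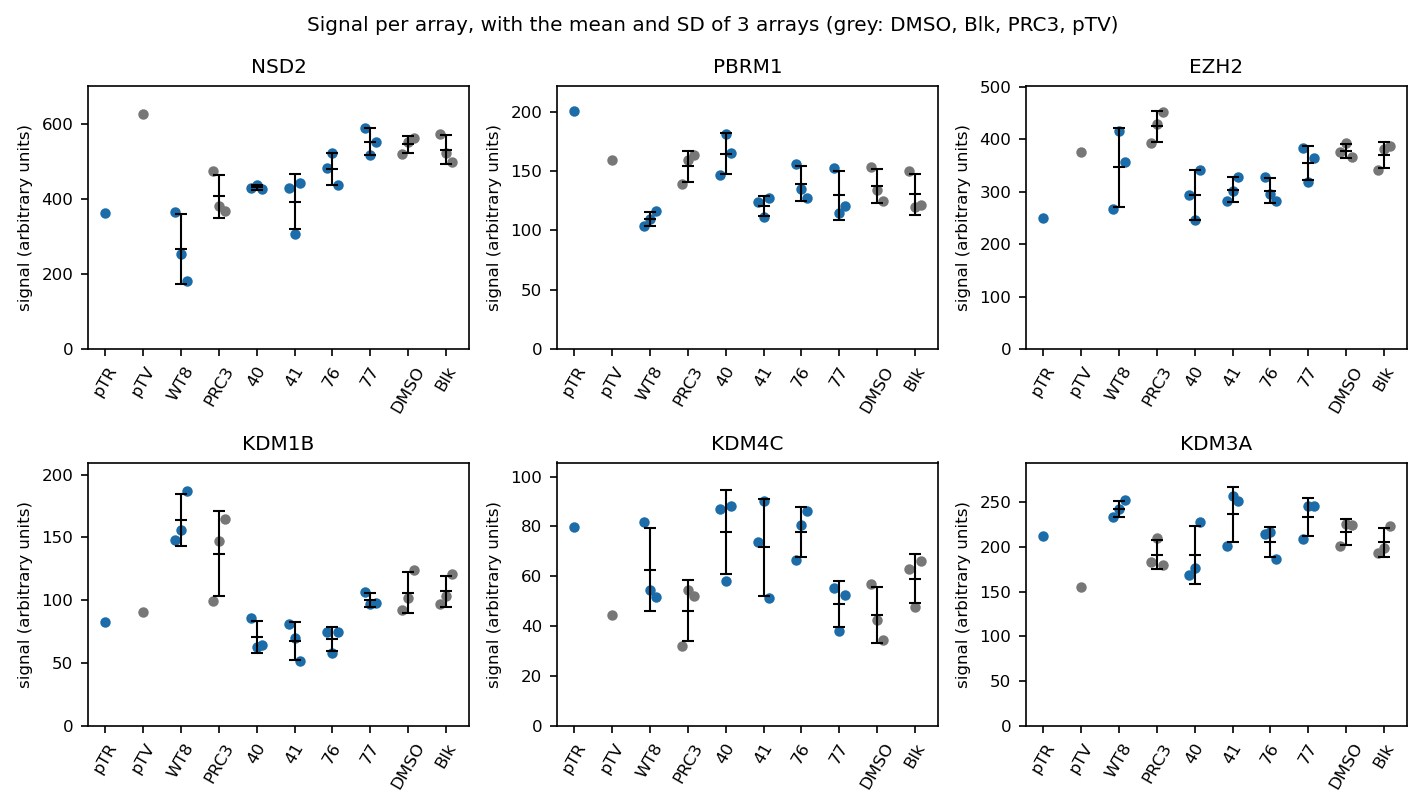
Normalised signal of NSD2, PBRM1, EZH2, KDM1B, KDM4C and KDM3A on each of the 26 arrays by group, with the mean and SD of each group of 3 and DMSO, Blk, PRC3 and pTV in grey. KDM1B and EZH2 lie below every DMSO and Blk array with 40, 41 and 76, and PBRM1 lies lower in WT8 than in PRC3 on every array.

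KDM4C had estimates above 0 with all 4 compounds. It read 86.8, 58.3 and 88.3 with 40, 73.6, 51.2 and 90.0 with 41, 66.6, 80.6 and 86.3 with 76 and 55.3, 38.2 and 52.6 with 77, against 56.8, 34.5 and 42.5 with DMSO. The changes were 0.81 (SE 0.29, adjusted p = 0.236), 0.68 (SE 0.29, adjusted p = 0.288) and 0.83 (SE 0.29, adjusted p = 0.221) in limma, and 0.14 with 77. Blk stood at 62.9, 66.3 and 47.8, an estimate of -0.42 for DMSO against Blk. The arrays of 76 lay above all 6 DMSO and Blk arrays, and those of 40, 41 and 77 did not. For the other known HIF targets, the estimates with 40, 41, 76 and 77 were -0.19, 0.12, -0.08 and 0.10 for KDM3A, and 0.12, 0.14, -0.16 and 0.03 for KDM4B. KDM3A read 169, 176 and 228 with 40 and 201, 252 and 257 with 41, against 201, 225 and 226 with DMSO. It read 215, 217 and 187 with 76 and 209, 246 and 246 with 77. KDM4B read 65.8, 86.7 and 79.3 with 40, 81.3, 60.3 and 96.1 with 41, 105, 41.5 and 57.9 with 76 and 89.8, 56.0 and 74.2 with 77, against 86.5, 42.6 and 95.7 with DMSO, with overlapping arrays throughout.

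Of the genes mutated in this cancer and KDM6A, all overlapped DMSO with every compound, except KDM6A with 41 and 76. SETD2 read 83.4, 225 and 103 with 40, 106, 113 and 106 with 41, 99.5, 150.1 and 101 with 76 and 144, 107 and 141 with 77, against 109, 95.3 and 106 with DMSO. Replicate 2 of compound 40 stands apart in that set. PBRM1 read 147, 182 and 165 with 40, 124, 127 and 111 with 41, 156, 135 and 127 with 76 and 153, 115 and 121 with 77, against 153, 125 and 134 with DMSO. KDM5C read 267, 224 and 198 with 40, 199.7, 194 and 246 with 41, 253, 204 and 205 with 76 and 235, 187 and 182 with 77, against 252, 204 and 217 with DMSO. KDM6A read 54.8, 76.9 and 82.6 with 40, 95.8, 88.9 and 100.2 with 41, 98.9, 103 and 98.6 with 76 and 92.3, 94.3 and 60.2 with 77, against 83.3, 67.9 and 69.5 with DMSO. The arrays of KDM6A did not overlap DMSO with 41 and 76, where its changes were 0.37 (SE 0.22, adjusted p = 0.525) and 0.45 (SE 0.22, adjusted p = 0.497) in limma, and 2 of its 3 tested probe sets had estimates below 0 in both.

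Other values with an unadjusted p under 0.05 were single members. With 40, SETD5 read 353, 494 and 379, against 333, 197 and 256 with DMSO, a change of 0.66 (SE 0.20, adjusted p = 0.147) in limma. With 76, SETD1A read 53.2, 52.3 and 36.7, against 21.0, 30.4 and 25.5 with DMSO, a change of 0.88 (SE 0.24, adjusted p = 0.0785), near the floor. SETD1A was also lower with DMSO than in Blk, at -0.84 (SE 0.24), and its 76 arrays overlapped those of Blk. Also with 76, KDM7A-DT was at 0.73 and KMT2A, an H3K4 methyltransferase, at -0.45. With 77, KDM3B was at -0.30 (SE 0.12, adjusted p = 0.531) and EHMT2, the H3K9 methyltransferase G9a, at -0.92 (SE 0.44, adjusted p = 0.646), with EHMT2 at 68.9, 33.6 and 24.2 against 73.3, 69.6 and 73.7 with DMSO.

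The vehicle made no difference that passed the test. DMSO against Blk had 0 of 45 members called, as it had 0% of all tested probe sets in limma, and 2 members at an unadjusted p under 0.05 (2.27% of all tested probe sets). These were SETD1A, which read 21.0, 30.4 and 25.5 with DMSO and 49.3, 45.6 and 41.7 in Blk, a change of -0.84 (SE 0.24, adjusted p = 1) in limma, and KMT2E-AS1, which stood at or near the floor. The arrays did not overlap for 2 members, against 6.15% of tested probe sets. With DMSO as given above, Blk read 575, 498 and 523 for NSD2, 342, 386 and 382 for EZH2 and 150.3, 122 and 119 for PBRM1. Blk read 194, 224 and 199 for KDM3A and 67.6, 97.6 and 95.2 for KDM4B, the known HIF targets beside KDM4C. It read 82.9, 108 and 108 for SETD2, 211, 159 and 249 for KDM5C and 99.7, 79.9 and 84.4 for KDM6A, and the DMSO arrays overlapped Blk for each of these 8 genes.

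PRC3 against Blk had 1 member called, SETD1A, which fell, with 1.03% of tested probe sets called. SETD1A read 23.8, 20 and 20 in PRC3, against 49.3, 45.6 and 41.7 in Blk, so 2 PRC3 arrays were at the floor. The change was -1.10 (SE 0.24, adjusted p = 0.027) in limma, and it was 0 with a floor of 50, since no value of SETD1A in either group passes that level. Leaving out PRC3 replicate 1 kept the call, and leaving out PRC3 replicate 2 or 3 or Blk replicate 1, 2 or 3 ended it, with limma adjusted p-values up to 0.108. It was also lost with signals as deposited (0.0531) and with both groups alone (0.12). SETD1A has 1 probe set, so no second measurement was at hand. In the remaining groups it read 33.4, 20 and 20 with 40, 20, 32.9 and 29.0 with 41, 20, 24.9 and 20 with 77, 30.3, 20 and 20 in WT8, 47.0 in pTR and 40.5 in pTV. At an unadjusted p under 0.05 in limma there were 8 members of 45, SETD1A included, against 11.2% of all tested probe sets. The others were KDM5B, an H3K4 demethylase, at 0.75 (SE 0.25, adjusted p = 0.181), NSD3 at 0.46 and SETD2 at 0.57 (-0.29 with its probe set of second highest signal), and on the lower side NSD2 at -0.39, KDM1A at -0.33, KDM3B at -0.29 and KMT2E-AS1 at -0.35. For KDM5B, PRC3 read 162, 119 and 102 and Blk 71.1, 75.9 and 76.1, with no overlap. The arrays did not overlap for 9 members, against 14.5% of tested probe sets.

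The 4 compounds were also set against each other in 6 pairs. Doses and times are not given in the labels, so equal exposure cannot be assumed. Of 45 members, 0 were called in 5 pairs, with a background of 0.591% for 40 against 41, 0.126% for 40 against 76, 0.44% for 40 against 77, 0.111% for 41 against 76 and 0.451% for 41 against 77. For 76 against 77, 1 was called, with a background of 0.474%. At an unadjusted p under 0.05 in limma the 6 pairs, in the same order, had 4, 4, 9, 2, 5 and 5 members of 45, against 11.9%, 9.43%, 11.2%, 5.50%, 8.46% and 7.18% of all tested probe sets. The called member was SETD1A, which read 53.2, 52.3 and 36.7 with 76 and 20, 24.9 and 20 with 77, where 2 arrays of 77 were at the floor. Its change was 1.12 (SE 0.24, adjusted p = 0.0315) in limma, and 0.0433 after adjustment over all 6 pairs. Leaving out 76 replicate 3 kept the call, and leaving out 76 replicate 1 or 2 or any array of 77 ended it, with limma adjusted p-values up to 0.167. It was also lost with no filter (0.0717), a filter at 12 arrays (0.0525), a floor of 50 (0.128) and both groups alone (0.199). SETD9, a SET domain protein, read 51.3, 40.3 and 63.3 with 40 and 99.4, 90.3 and 81.8 with 77, a change of -0.83 (SE 0.23, adjusted p = 0.127) in limma. For 40 against 41 it was at -0.71 (SE 0.23, adjusted p = 0.17). KDM1B was -0.51 for 40 against 77, -0.59 for 41 against 77 and -0.54 for 76 against 77, with limma adjusted p-values of 0.372, 0.366 and 0.557. The 95% interval was -0.97 to -0.06 for 40 against 77 and -1.05 to -0.14 for 41 against 77.

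Other members had an unadjusted p under 0.05 between compounds and did not pass the adjusted test. SETD5, a SET domain protein, had estimates for 40 against 41, 76 and 77 of 0.49, 0.45 and 0.55. It read 353, 494 and 379 with 40, 332, 244 and 294 with 41, 300.4, 301 and 283 with 76 and 317, 242 and 273 with 77, with no overlap between 40 and the others. KDM5A, an H3K4 demethylase, was estimated at 0.55 for 40 against 76, 0.56 for 41 against 76 and 0.53 for 41 against 77. SETD6 was at 0.75 for 40 against 77 and 0.73 for 41 against 77. PBRM1 was at 0.44 and KDM3A at -0.31 for 40 against 41, and KDM6A at -0.51 for 40 against 76. SETD1A was at -0.98 for 40 against 76 and -0.81 for 41 against 76, which at an adjusted p over the 6 pairs gave 0.0977 and 0.212 in limma. Without 40 replicate 1, SETD1A was called for 40 against 76, at -1.22 (limma adjusted p = 0.0272). Both arrays of 40 then left are at the floor, so the size of that estimate depends on the floor. They are also the 2 arrays with higher mean deposited signals (164 and 171) than the rest. With the probe set of second highest signal, the estimate was -0.084 for PBRM1 in 40 against 41, -0.027 for KDM5A in 40 against 76 and -0.022 for SETD6 in 40 against 77, each of the opposite sign. For 41 against 77, NSD2 was at -0.51 and KDM3B at 0.26. KDM4C was at 0.67 for 40 against 77 and 0.69 for 76 against 77, where SETD7 was at 0.33 and EHMT2 at 0.94. The 95% interval lay within 1 log2 unit either way for 32 members (40 against 77) to 40 members (41 against 76).

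pTR and pTV have no replicate, so their difference has no replicate check. Of 45 members, 28 were higher in pTR and 16 lower, with a median difference of 0.21 on the log2 scale. At 1 log2 unit or more, 1 was higher and 1 lower, against 5.76% and 5.95% of tested probe sets. The higher was KDM8, at 41.0 in pTR and the floor of 20 in pTV, and the lower SUV39H1, which trimethylates H3K9, at 44.9 in pTR and 124 in pTV. NSD2 read 364 in pTR and 627 in pTV, and PBRM1 read 200.3 in pTR and 159 in pTV. Of the known HIF targets, KDM3A read 212 in pTR and 155 in pTV, KDM4B 204 in pTR and 106 in pTV, and KDM4C 79.9 in pTR and 44.6 in pTV. EZH2 read 250.2 in pTR and 375 in pTV, and KDM6A, which removes the mark EZH2 sets, 125 in pTR and 69.7 in pTV. SETD2 read 202 in pTR and 165 in pTV, and KDM5C 233 in pTR and 212 in pTV.

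Partners and related genes, in lists drawn up with earlier results of these data known, were tested in the same fit. They hold 83 distinct tested genes, of which 1 was called with 40 (1.2%), 4 with 41 (4.82%), 3 with 76 (3.61%), 0 with 77, 3 in WT8 against PRC3 (3.61%), 0 with DMSO against Blk and 1 in PRC3 against Blk (1.2%). The shares over all tested probe sets were 0.685%, 2.54%, 1.35%, 0.171%, 4.56%, 0% and 1.03% in the same order. Of the PRC2 partners (9 genes tested), PHF19, which recruits PRC2, fell in PRC3 against Blk at -0.91 (SE 0.22, adjusted p = 0.0405) in limma, and 0 were called in the other 6 comparisons with a control. COMPASS partners (11), other Jumonji C genes (11) and the DNA methylation genes DNMT and TET with UHRF1 (7) had 0 called in the 7 comparisons with a control. Over the 8 lists of this kind the medians lay between -0.27 and 0.20 in those comparisons. Of 14 other methyltransferases, PRMT5, a symmetric arginine methyltransferase, fell in WT8 (126 ± 51.4) against PRC3 (247 ± 12.2, SD, n = 3 each), at -1.07 (SE 0.28, adjusted p = 0.0227) in limma, and PRMT2 rose with 41, at 0.66 (SE 0.17, adjusted p = 0.0382). Of 16 BAF and PBAF subunits, SMARCC1 fell with 40 and 76, at -0.76 (SE 0.15, adjusted p = 0.014) and -0.59 (SE 0.15, adjusted p = 0.0426). PHF10, a PBAF subunit like PBRM1, fell with 41, at -0.84 (SE 0.23, adjusted p = 0.0482), and the ATPase SMARCA2 rose in WT8, at 0.80 (SE 0.20, adjusted p = 0.0184). Of the BAP1 partners (8), MBD5 rose with 41 and 76, at 0.95 (SE 0.21, adjusted p = 0.0112) and 0.91 (SE 0.21, adjusted p = 0.0229). Of 9 genes of the methionine and folate cycles, which supply the methyl donor, the folate enzyme MTHFD1 fell with 41, with 76 and in WT8, at -0.49 (SE 0.12, adjusted p = 0.0201), -0.48 (SE 0.12, adjusted p = 0.0337) and -0.45 (SE 0.12, adjusted p = 0.0232). It averaged 360.1 ± 30.5 with 41 and 361 ± 11.1 with 76, against 505 ± 32.3 with DMSO, and 490.3 ± 15.8 in WT8, against 669 ± 57.0 in PRC3 (SD, n = 3 each).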

How the data were processed

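Total RNA was hybridised to Affymetrix U133 Plus 2.0 arrays, per the labels. The authors deposited linear signal intensities per probe set, for which the submitters' processing notes name MAS5 (version and scaling not given in the sources used here). Per the labels, values were held between 20 and 16000 and probe sets of low variation dropped. The deposited table holds 646373 values below 20, so the floor was not applied in it.

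From these intensities 62 control probe sets were removed, the 26 arrays were quantile normalised, floored at 20, capped at 16000 and put on a log2 scale. A probe set was kept if it reached the median of its array on 3 or more of the 24 arrays (35013 of 54613). Kept probe sets were fitted in limma 3.58.1 (R 4.3.3; lmFit, eBayes with a trend) with 1 spread estimate over the 8 groups of 3 arrays, and the Benjamini-Hochberg adjusted p over the kept probe sets was called below 0.05. "Called", "rose" and "fell" refer to this test. Arrays do not overlap where every array of a group lies on one side of all arrays of the other. The number of arrays limits the precision. Gene names came from the platform annotation: 41091 probe sets had 1 gene, 1801 several and 11721 none, and 41037 of the first were found in RefSeq of GRCh38.p14.

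Members and gene lists were chosen with earlier results of these data known. Named were the members called in a comparison with a control, EZH2, KDM3A, KDM4B, KDM4C, KDM5C, KDM6A, SETD2 and PBRM1, and in each contrast up to 3 rises and 3 falls with the smallest unadjusted p under 0.05. KDM1A and EZH1 with the compounds, KMT2E-AS1, and the probe sets of NSD2 and KDM1B not used for the gene were added after their values were seen.

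Replicate numbers come from the titles. Same-numbered arrays deviated together (every correlation over 0.1) for 41 and 76 against DMSO, WT8 against PRC3, DMSO against Blk and 41 against 76, with 0.457, 0.107 and 0.346 for WT8 and PRC3, and not in the other 8 comparisons. Alternatives were other normalisations, filters and floors, 2 groups alone, the replicate block, other probe sets, a fit without a trend and leaving out arrays.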

Additional observations from a re-analysis of the deposited data

How the results depend on the processing

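Of 45 members, the number called stayed at the reported count for 197 of 225 combinations of comparison and setting. Most of the 13 comparisons had 0 members called, and a count of 0 has little room to move. A setting that called another gene in place of the reported one counted as unchanged. In WT8 against PRC3 the number called was 1 as reported. It was 0 without the eBayes trend, with the probe set of second highest signal and with the 2 groups alone, and between 0 and 1 with single arrays left out. The called gene was PBRM1 in place of NSD2 with no filter and with a floor of 50, and KDM4A without PRC3 replicate 1. In PRC3 against Blk it was 0 with signals as deposited, a floor of 50, the second probe set or the 2 groups alone, and between 0 and 1 with single arrays left out. In 76 against 77 it was 0 with no filter, a filter at 12 arrays, a floor of 50, the second probe set or the 2 groups alone, and between 0 and 1 with single arrays left out. The 0 with the second probe set reflects that SETD1A has none. In 41 against DMSO it was 1 (KDM1B) with the second probe set and with DMSO and Blk together, and in 40 against 76 between 0 and 1 (SETD1A, without 40 replicate 1). With the replicate block NSD2 in WT8 against PRC3 was -0.66 (SE 0.15, limma adjusted p = 0.00885), SETD1A in PRC3 against Blk -1.10 (adjusted p = 0.0176) and in 76 against 77 1.12 (0.0244), and the block changed no other call of a member. Of the named changes, 4 turned sign, all with the second probe set: SETD2 in PRC3 against Blk (-0.29), PBRM1 in 40 against 41 (-0.084), KDM5A in 40 against 76 (-0.027) and SETD6 in 40 against 77 (-0.022). Counted as pairs of 1 of the 55 named changes and 1 setting, 26 pairs lost the call, 6 gained it and 891 did neither. All 26 losses fall on the reported calls: NSD2 in WT8 against PRC3, and SETD1A in PRC3 against Blk and in 76 against 77. Over all tested probe sets the 2 groups alone gave 12 higher and 7 lower calls in WT8 against PRC3, in place of 822 and 775, and median scaling gave 442 and 742. Without quantile normalisation the median of all tested probe sets shifted by 0.11 in 40 against 41. Signals near the floor of 20 limit SETD1A, KDM8 and both non-coding members. EHMT2 had 1 array and KMT5C 2 arrays at the floor, and the lowest KMT2B signal was 20.6.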
